A study of Mus musculus with 9 samples.

Results

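Control fibroblasts labelled D4-OSKM-2ndMEFs were described by the absolute level of their transcripts, without comparison to any other group. The 3 libraries whose titles name no overexpression were taken (replicates 1, 2 and 3), out of 9 libraries in the series. The other 6 carry overexpression of Zscan4f or of Zscan4f3A and are not analysed here. All were RNA-seq libraries of total RNA, and the cells are given as C57BL/6 embryonic fibroblasts in primary culture, so the control libraries share the OSKM label with the other 6. OSKM stands for the reprogramming factors Oct4 (gene Pou5f1), Sox2, Klf4 and Myc. The labels do not give the meaning of D4 or 2ndMEFs, the delivery of the factors, the embryonic age or sex, or whether an empty vector was used. They also do not say that the replicates came from separate cultures, so the spread between them may be technical.

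Fibroblasts are mesenchymal cells that build connective tissue by secreting collagens, fibronectin, proteoglycans and the enzymes that crosslink them. When the OSKM factors are supplied, fibroblasts are known to lose mesenchymal genes and to take up epithelial ones before a small share of cells reaches the pluripotent state, in which a self-sustaining network around Nanog and endogenous Pou5f1 is active. Cell cycle arrest through the p53 pathway is a known barrier to that route.

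The 5 marker genes chosen for these libraries, which the label itself does not name, were all detected. Col1a1, a chain of type I collagen and a defining product of fibroblasts (chr11:94936224-94953042 on the forward strand), was at 2792, 2802 and 2683 TPM in replicates 1, 2 and 3. Sox2 (chr3:34650405-34652461, forward strand) was at 612, 547 and 564 TPM, and Klf4 (chr4:55527143-55532466, reverse strand) at 317, 259 and 282 TPM. Igfbp3, a secreted carrier of insulin-like growth factors (chr11:7206086-7213923, reverse strand), was at 925, 931 and 913 TPM, and Cdkn1a, the p21 inhibitor of cyclin-dependent kinases (chr17:29090979-29100722, forward strand), at 959, 944 and 902 TPM. Of the 5 markers, Klf4 had the widest spread relative to its mean. By mean level over all 54986 genes, the 5 ranked from 28 (Col1a1) to 481 (Klf4).

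TPM, a relative transcript abundance, is corrected for transcript length and has the same sum in every library, so levels can be set side by side between genes within that sum. A level is an average over all cells of a culture: in these bulk samples, fewer cells of a type and less RNA per cell cannot be told apart. In total, 14440 genes reached 1 TPM in all 3 libraries, and their median level was 20.7 TPM. Of these, 12490 were protein-coding, out of 21906 protein-coding genes in all. Another 25747 genes were listed at 0 in all 3. A level of 10 TPM was reached by the mean of 9741 genes, 100 TPM by 1727 and 1000 TPM by 114. The coefficient of variation (CV, the SD as a percent of the mean) had a median of 5.7% over the 11536 genes with a mean of at least 5 TPM. The 13 proteins encoded by mitochondrial DNA took 9.35% ± 0.323 of all TPM (SD, n = 3), and 83 cytosolic ribosomal proteins took 7.15% ± 0.0939. A further 4.3% ± 0.0714 was given to 7 unprocessed pseudogenes on chromosome 1 (RP23-8J15.1 to RP23-8J15.7), several of them at nearly the level of a mitochondrial gene. RP23-8J15.2 was at 9583 ± 159.98 TPM and mt-Co2 at 9583 ± 161 TPM, and RP23-8J15.6 at 4201 ± 236 TPM and mt-Nd4l at 4204 ± 246 TPM. Whether these loci are transcribed was not tested.

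**Figure D1:**
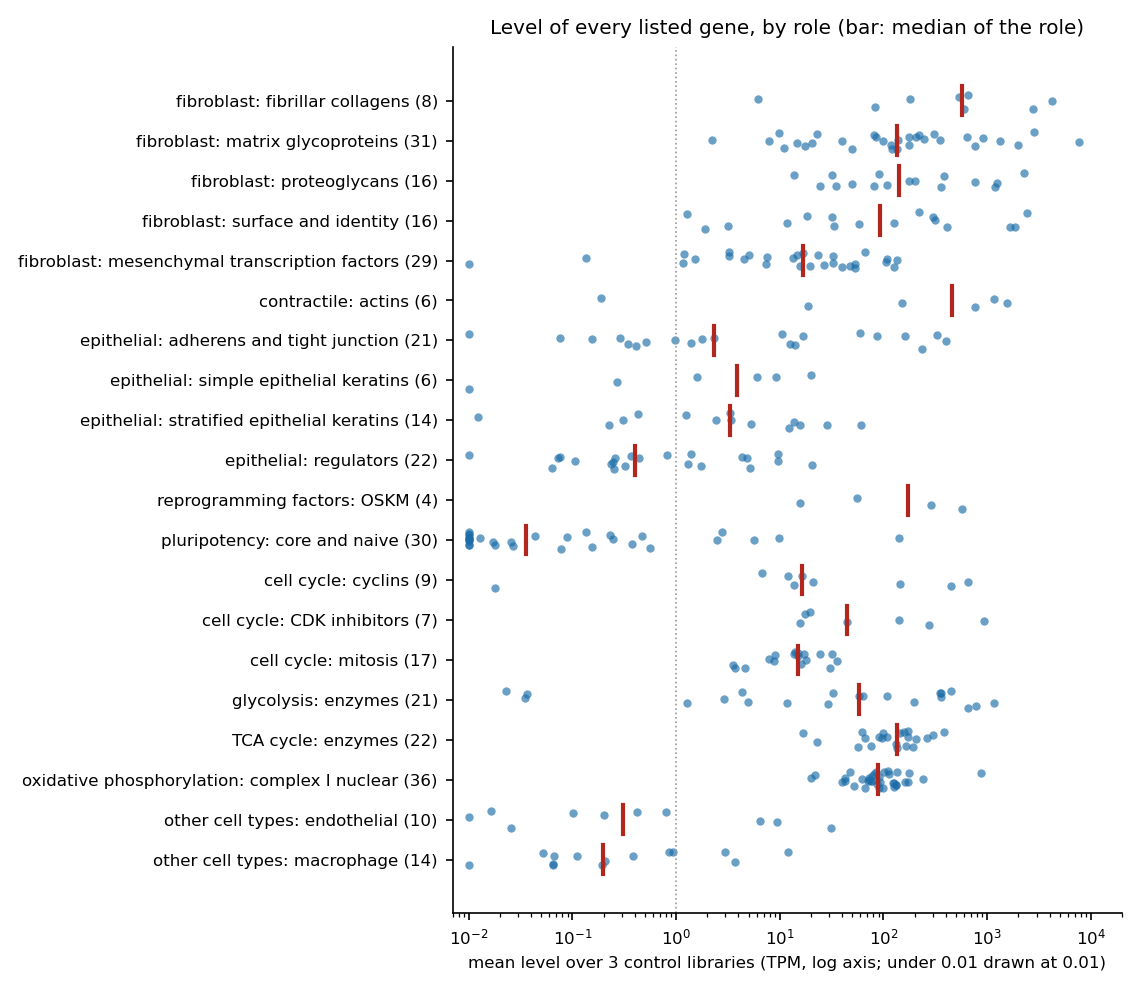
Mean level over the 3 control libraries (TPM, log axis) of every listed gene in 20 roles, 1 dot per gene, with the number of genes in brackets and a bar at the role's median. Fibroblast matrix genes lie mostly above 10 TPM, with a median of 569 TPM for fibrillar collagens, while the median of the pluripotency core was 0.0353 TPM.

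The 4 reprogramming factors were present at very unequal levels. Sox2, an HMG-box factor of early embryo and neural cells, was at 574 ± 33.5 TPM (mean ± SD, n = 3), and Klf4, a zinc finger factor, at 286 ± 29.6 TPM. Myc, which drives growth and division in many cell types, was at 54.3, 55.8 and 57.3 TPM in the 3 libraries. Pou5f1 (chr17:35506018-35510772), the Oct4 gene, was at 16, 13.5 and 18 TPM and was the lowest of the 4. The 4 factors kept this order in each library, and no library of one overlapped the range of the next. Per library, Sox2 exceeded Pou5f1 38.3, 40.5 and 31.3 times, and Klf4 1.93, 2.12 and 2.0 times. The summed level of the 4 was 999, 875 and 921 TPM.

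These values do not part RNA of a transgene from RNA of the cells' own gene. TPM divides by the length of the annotated transcript, and a transgene usually carries the coding part alone: the annotated Sox2 transcript has 2057 bases, of which 957 are coding, against 1362 and 1056 for Pou5f1. The Sox2 gene also lies within the long non-coding gene Sox2ot, and nothing in the sources used here says that strand was used in counting. Relatives of the factors were low. Of 12 such genes, 6 reached 1 TPM in all 3 libraries, the highest being Pou2f1, the Oct1 gene, at 7.63 ± 0.903 TPM. Klf5 was at 4.8 TPM, Mycl at 3.38, Mycn at 3.06 and Klf2 at 1.98 TPM, and Lin28a and Sox3 were listed at 0.

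Most pluripotency genes were at or near 0. Of 30 genes of the pluripotency core and naive state, 5 reached 1 TPM in all 3 libraries, 25 had a mean under 1 TPM and 10 were listed at 0. Among protein-coding genes as a whole, 12490 of 21906 reached 1 TPM in all 3. Nanog, the homeobox factor at the centre of the network, was at 0.311, 0.40 and 0.421 TPM. Esrrb, an orphan nuclear receptor of the naive state, was at 0.0458, 0.0322 and 0.0541 TPM. Zfp42, the Rex1 gene, was at 0.0536, 0 and 0 TPM, so that it was above 0 in 1 library. Sall4 had the same pattern, with 0.039, 0 and 0 TPM, and Dppa5a was listed at 0 in all 3.

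The 5 pluripotency genes that reached 1 TPM in all 3 libraries are not restricted to pluripotent cells. Trim28, a corepressor found in most cell types, was at 142 ± 2.76 TPM. Tbx3, a T-box factor that limb mesenchyme also uses, was at 9.61, 10.2 and 9.95 TPM. Lefty1, a secreted inhibitor of Nodal, was at 4.56, 7.14 and 5.16 TPM, Tet1, a 5-methylcytosine dioxygenase, at 3.64, 1.77 and 2.88 TPM, and Sall1 at 2.4, 2.25 and 2.88 TPM. Lefty1 was highest in replicate 2, where Tet1 was lowest.

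Surface genes used to follow early reprogramming stood on the fibroblast side. Thy1, lost early from cells that reprogram, was at 223 ± 3.35 TPM, and Cd44 was at 96.8 ± 9.93 TPM. Alpl, alkaline phosphatase, gained early in reprogramming, was at 0.157, 0.209 and 0.179 TPM. Epcam, an epithelial adhesion protein, was at 0.987, 1.27 and 1.88 TPM, and Cdh1, E-cadherin, at 14.2, 14.2 and 13.8 TPM. The levels of Thy1, Cd44, Cdh1, Epcam and Alpl followed this order with no overlap between neighbours in the 3 libraries.

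**Figure D2:**
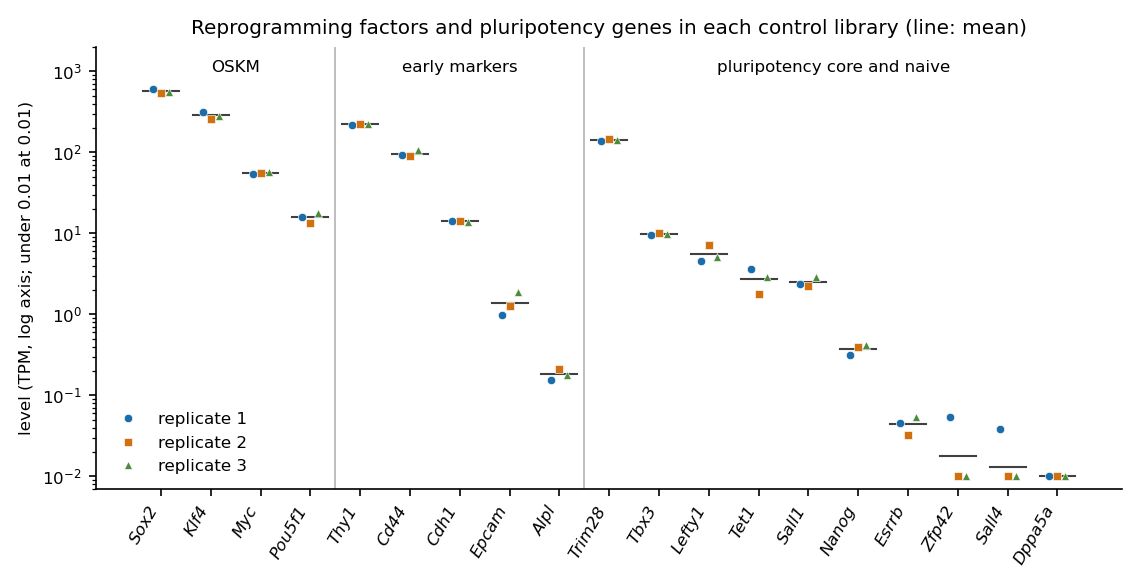
Level (TPM, log axis, values under 0.01 drawn at 0.01) of the OSKM factors, early surface markers and pluripotency genes in each of the 3 control libraries, with a line at the mean. The OSKM factors lie between 15.8 and 574 TPM on average, whereas Nanog lies at 0.377 TPM and the genes to its right under 0.1 TPM.

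Fibroblast genes were present nearly without exception. Of 135 listed genes, 129 reached 1 TPM in all 3 libraries, 64 had a mean of at least 100 TPM, and together they took 5.27% of all TPM. Over all 54986 genes, 14440 and 1727 passed the same levels. Many of the 54986 are not protein-coding: of the 21906 that are, 12490 reached 1 TPM in all 3 libraries.

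Type I collagen led the fibrillar collagens. Col1a2 was at 4336, 4282 and 4161 TPM and exceeded Col1a1 by a ratio of 1.54 ± 0.0135, which was nearly the same in each library. Type I collagen protein is a trimer with more Col1a1 than Col1a2 chains, and the transcript levels had the opposite order. Col3a1, of reticular fibres, was at 649 ± 6.71 TPM, Col5a2 at 603 ± 1.97 TPM and Col5a1 at 535 ± 9.87 TPM, the last 2 encoding chains that nucleate collagen fibrils. Col2a1, best known from cartilage, was at 190.03, 170.3 and 177 TPM, and Col5a3, the lowest of the 8, at 6.2 ± 0.436 TPM. The 8 genes summed to 9202, 9131 and 8887 TPM.

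Basement membrane and other collagens were also abundant. Col4a2 and Col4a1, the main chains of basement membrane collagen, were at 816, 819 and 802 TPM and 771, 755 and 628 TPM. Replicate 3 was the lowest for both. Among the chains of type VI collagen, a microfibril that many mesenchymal cells make, Col6a3 was at 597 ± 3.45 TPM, Col6a1 at 294 ± 8.93 TPM and Col6a2 at 159 ± 3.74 TPM. Col8a1 was at 488 ± 9.55 TPM and Col12a1 at 349 ± 14.7 TPM. Of the 19 other collagen genes, 3 had a mean under 1 TPM.

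Among matrix glycoproteins, Sparc, a calcium-binding matrix protein, was the most abundant at 7646, 7496 and 7860.1 TPM, second among nuclear protein-coding genes to Eef1a1, a translation elongation factor at 8717 ± 167 TPM. Thbs1, thrombospondin 1, was at 2861 ± 23.9 TPM. Fn1, fibronectin, was at 1858, 1871 and 2166 TPM, highest in replicate 3. The elastic fibre genes were unequal: Fbn1, fibrillin 1, was at 1332 ± 14.6 TPM and Fbln5, which links elastin to microfibrils, at 919.5 ± 24 TPM, while Eln, elastin itself, was at 81.3 ± 3.13 TPM. Postn, periostin, was at 763 ± 13.7 TPM and Tnc, tenascin C, at 177 ± 2.11 TPM. All 31 genes of this role reached 1 TPM in all 3 libraries.

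The small leucine-rich proteoglycans, which bind collagen fibrils, spanned a wide range. Bgn, biglycan, was at 2256 ± 9.69 TPM and Dcn, decorin, at 1233, 1251 and 1223 TPM, whereas Lum, lumican, was at 12.7, 13.8 and 14.3 TPM. Dcn exceeded Lum by a ratio of 91 ± 5.79. Of the cell surface proteoglycans, Gpc4 was at 1185 ± 15.1 TPM and Gpc3 at 50.04 ± 2.92 TPM, and Hspg2, perlecan, was at 759 ± 12.8 TPM. The enzymes that process collagen were all above 10 TPM. Pcolce, which enhances procollagen cleavage, was at 1280.3 ± 3.5 TPM and Lox, which crosslinks collagen and elastin, at 1040.2 ± 14.3 TPM. Serpinh1, the collagen chaperone HSP47, varied far more, with 1019, 482 and 439 TPM; its replicate 1 was the highest by far.

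Surface and identity genes of mesenchyme were led by Vim, vimentin, at 2415, 2416 and 2423 TPM, Ly6a, the Sca-1 antigen, at 1869 ± 153 TPM and S100a4, also called fibroblast-specific protein, at 1672 ± 29.3 TPM. Cdh11, the cadherin of mesenchymal cells, was at 412 ± 6.38 TPM, above Cdh2, N-cadherin, at 128 ± 2.55 TPM. Pi16 and Cd248, surface genes of fibroblasts, were at 313 ± 11.1 TPM and 299 ± 9.23 TPM. Of the receptors for platelet-derived growth factor, Pdgfrb was at 56.3, 59.5 and 58.1 TPM and Pdgfra at 19, 17.7 and 18.7 TPM. Fap, a protease of activated fibroblasts, was at 1.04, 1.3 and 1.49 TPM, the lowest of the 16 genes of this role.

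The regions just upstream of the Vim and S100a4 start sites are shown because both genes passed 1000 TPM and both hold the letters TATAAA, those of the TATA box, a core promoter element. The 100 bases before the start were read from RefSeq promoter sequences (GRCm38.p6) and the capitals mark the letters TATAAA. The Vim stretch lies at chr2:13574211-13574310 and that of S100a4 at chr3:90603670-90603769, both on the forward strand.
Vim: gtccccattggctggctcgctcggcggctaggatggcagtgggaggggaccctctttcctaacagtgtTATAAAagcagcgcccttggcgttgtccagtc
S100a4: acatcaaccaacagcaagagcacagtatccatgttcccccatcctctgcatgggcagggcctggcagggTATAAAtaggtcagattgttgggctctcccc
The letters begin 32 bases before the start in Vim and 31 in S100a4. Searched on both strands in the same stretch, TATAAA was found in 5.56% of 32851 promoters. By level in these libraries, it was found in 14.2% of promoters of genes listed at 0, in 2.04% of those at 10 to under 100 TPM and in 8.24% (7 of 85) at 1000 TPM or more. The share was thus lowest for genes of middle level. The CG dinucleotide, whose density marks CpG island promoters, ran the other way: the median per 300-base promoter (250 bases before the start and 50 after) was 2 for genes listed at 0, 6 under 1 TPM, 15 at 1 to under 10 TPM and 22 at 10 to under 100 TPM. It was 20 at 1000 TPM or more. The Vim promoter held 11 and that of S100a4 held 2. Genes with several promoters count once for each, and a match of letters is a description of sequence.

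The cytoskeleton had the genes of contractile fibroblasts. Acta2, smooth muscle actin, was at 1524, 1619 and 1508 TPM, above Actg1 at 1120.4, 1126 and 1284 TPM and Actb at 881, 772 and 618 TPM, the 2 actins of all cells. The ratio of Acta2 to Actb was 1.73, 2.1 and 2.44 in the 3 libraries. Tagln, transgelin, was at 591 ± 14.7 TPM, Cald1, caldesmon, at 693 ± 27.5 TPM and Actn4, an actinin, at 1187 ± 54.2 TPM. Myl6, a myosin light chain of many cell types, was at 1887 ± 90.03 TPM, while Myh11, the myosin heavy chain of differentiated smooth muscle, was at 3.35, 4.1 and 3.67 TPM and Des, desmin, at 2.15, 1.35 and 0.811 TPM. Ctgf and Cyr61, matricellular genes known as targets of Yap1, were at 478 ± 16.9 TPM and 348 ± 11.1 TPM.

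The factors known to hold the mesenchymal state were unevenly present. Prrx1 was at 135 ± 3.86 TPM, Prrx2 at 125 ± 5.5 TPM and Twist1 at 108 ± 1.79 TPM. Of the repressors of epithelial genes, Zeb1 was at 52.8 ± 12.1 TPM, Zeb2 at 41.4, 27.1 and 49.9 TPM, Snai1 at 23.4 ± 0.639 TPM and Snai2 at 14.7 ± 0.323 TPM. Zeb1, Snai1 and Snai2 followed this order without overlap between libraries. Tcf21 was listed at 0. Of 29 factors in this role, 26 reached 1 TPM in all 3 libraries.

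Epithelial genes were mixed. Of 99 listed, 53 reached 1 TPM in all 3 libraries, 42 had a mean under 1 TPM and 5 had a mean of at least 100 TPM. The first count is near the share of all protein-coding genes, of which 12490 of 21906 reached 1 TPM in all 3. Catenins, which also serve mesenchymal cadherins, were high: Ctnnb1, beta-catenin, was at 405 ± 7.91 TPM and Ctnna1 at 328 ± 2.35 TPM. Cdh1 was far lower, and Cdh2 exceeded it by a ratio of 9.09 ± 0.122. Among claudins, the strand proteins of tight junctions, Cldn3 was at 12.6, 12.9 and 12 TPM and Cldn1 at 10.5 ± 0.482 TPM. Cldn4 and Cldn7 were at 0.346 and 0.286 TPM, Cldn6 was listed at 0, and Ocln, occludin, was at 0.0767 TPM.

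Keratins form filaments as pairs of a type I and a type II chain, and 3 of the listed pairs had unequal levels. Krt8, the type II chain of simple epithelia, was at 21.4, 19 and 20.3 TPM, whereas its usual partner Krt18 was at 1.35, 2.07 and 1.33 TPM. The ratio of Krt8 to Krt18 was 13.4 ± 3.72. Other type I chains of simple epithelia were above Krt18, with Krt19 at 10.5, 7.35 and 9.62 TPM and Krt20 at 6.1 ± 0.67 TPM. The ratio thus does not compare Krt8 with all its possible partners. In stratified epithelium the type I chain Krt14 pairs with Krt5: Krt14 was at 27, 29.5 and 28.8 TPM and Krt5 at 1.17, 1.41 and 1.16 TPM, a ratio of 22.9 ± 2.0. Krt16 was at 59.9, 60.5 and 60.7 TPM and its partner Krt6a at 12.5, 13.9 and 10.8 TPM. The ranges of the suprabasal pair overlapped: Krt1 was at 3.1, 3.54 and 3.34 TPM and Krt10, whose span overlaps another gene, at 4.15, 2.49 and 3.46 TPM. Krt16 was the highest of the keratins listed.

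Desmosome genes were present in part. Perp, a desmosomal protein and p53 target, was at 224 ± 4.01 TPM, Dsp, desmoplakin, at 58.9 ± 1.75 TPM and Pkp1, plakophilin 1, at 49.4 ± 0.476 TPM. Of the desmosomal cadherins, Dsc2 was at 6.32 ± 0.536 TPM and Dsg3 at 1.72 ± 0.172 TPM, while Dsg2 and Dsc3 were at 0.702 and 0.205 TPM. Genes of the cornified layer of skin included Klk14, a secreted serine protease, at 71.6, 69.9 and 70.9 TPM, Klk10 at 26.9 ± 0.64 TPM and Lgals7, galectin 7, at 26.1 ± 2.21 TPM. Ivl, involucrin, was at 0.925, 1.36 and 1.15 TPM.

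The factors that direct epithelial fate were low, with 13 of 22 under a mean of 1 TPM. Grhl3, a grainyhead factor of surface ectoderm, was at 9.62 ± 1.27 TPM, while Grhl2 was at 0.123, 0.106 and 0.000625 TPM. Esrp1, a splicing regulator of epithelia, was at 0.128, 0 and 0.0903 TPM and Trp63, the p63 gene of basal epidermis, at 0.805, 0.609 and 1.02 TPM. Tfap2b was at 9.65 ± 0.16 TPM, and Spint2, a protease inhibitor, was the highest of the role at 20.4 ± 2.27 TPM.

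Division genes were nearly all detected, and the D cyclins and Cdk4 stood above every mitotic gene listed. Of 81 listed cell cycle genes, 80 reached 1 TPM in all 3 libraries, beside 12490 of 21906 protein-coding genes. The D cyclins, which start G1 progression, were the highest cyclins, with Ccnd1 at 671, 649 and 653 TPM and Ccnd2 at 454, 447 and 447 TPM. Ccnd3 varied, at 132, 209.7 and 89.8 TPM. Ccne1, of the G1 to S transition, was at 16.4 ± 0.974 TPM, Ccna2, of S and G2, at 21 ± 1.73 TPM and Ccnb1, of mitosis, at 11.5, 12.7 and 17.2 TPM. E2f1, a factor of S phase entry, was at 17.2 ± 0.305 TPM. Ccnd1 exceeded Ccna2 by a ratio of 31.5 ± 2.65. Cdk4, the partner of D cyclins, was at 184 ± 15.2 TPM, while Cdk6, Cdk2 and Cdk1 were at 15.5, 17.3 and 15.3 TPM and overlapped one another.

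Mitotic genes spanned 3.55 to 35.8 TPM, with a median of 14.9 over 17 genes. Top2a, the topoisomerase that untangles chromosomes, was at 35.7, 37.1 and 34.7 TPM, Cdc20, an activator of the anaphase-promoting complex, at 31.2, 30.8 and 29.6 TPM and Mki67, the proliferation antigen Ki-67, at 14.4, 15.1 and 15.1 TPM. Kif11, the lowest of the 17 at 3.55 TPM, was listed under 2 gene IDs with nearly equal values, and the value of 1 ID is given. In the replication group, Pcna, the sliding clamp, was at 109.6 ± 1.93 TPM, Rrm1, of ribonucleotide reductase, at 67.9 ± 0.566 TPM, Mcm2 of the helicase at 17.5 ± 1.8 TPM and Cdc6, which loads the helicase, at 1.59, 1.32 and 2.25 TPM.

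Upstream sequences of 3 mitotic genes are shown because many genes that peak in mitosis carry the CHR element (cell cycle genes homology region), bound by the DREAM complex that silences them in arrested cells. The 100 bases before the start come from RefSeq (GRCm38.p6), at chr10:69352913-69353012 for Cdk1, chr4:118437344-118437443 for Cdc20 and chr11:99024190-99024289 for Top2a, all on the reverse strand and written 5′ to 3′ along the gene. The capitals mark TTTGAA, the core letters of the element, or on the other strand TTCAAA.
Cdk1: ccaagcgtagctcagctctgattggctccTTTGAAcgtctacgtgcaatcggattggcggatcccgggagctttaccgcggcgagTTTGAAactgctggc
Cdc20: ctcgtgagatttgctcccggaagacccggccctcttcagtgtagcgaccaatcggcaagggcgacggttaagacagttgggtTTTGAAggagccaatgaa
Top2a: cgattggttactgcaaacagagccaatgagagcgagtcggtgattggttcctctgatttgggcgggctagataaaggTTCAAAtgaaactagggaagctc
Cdk1 held the letters at 71 and 15 bases before the start, Cdc20 at 18 and Top2a at 23. Searched on both strands, TTTGAA was found in 6 of 16 promoters of the mitosis role (37.5%), against 5.77% of all promoters. CCAAT, the letters bound by the factor NF-Y, was found in 12 of the same 16 (75%), against 18.9% of all. Only 15 of the 17 mitotic genes had a promoter in the table. Cdk1 is listed under kinases and phosphatases, so it is not part of these counts. Of the 3 genes shown, Cdk1 was at 15.3 ± 0.304 TPM, under the level of Cdc20 and Top2a.

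Inhibitors of cyclin-dependent kinases were led by Cdkn1a, at 935 ± 29.9 TPM the gene of rank 125 among all genes. It exceeded Cdk1 by a ratio of 63.1, 62.6 and 57.6 in the 3 libraries. Cdkn2a, which encodes p16 and p19Arf, was at 285, 266 and 267 TPM, and Cdkn2b, p15, at 149.8, 142 and 136 TPM. Gene-level values do not part p16 from p19Arf. Cdkn1c, p57, was at 44.9 ± 3.67 TPM. Cdkn2d, Cdkn1b and Cdkn2c lay at 19.8, 17.5 and 15.6 TPM. The first 4 followed this order with no overlap between libraries. All 7 inhibitors reached 10 TPM on average.

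**Figure D3:**
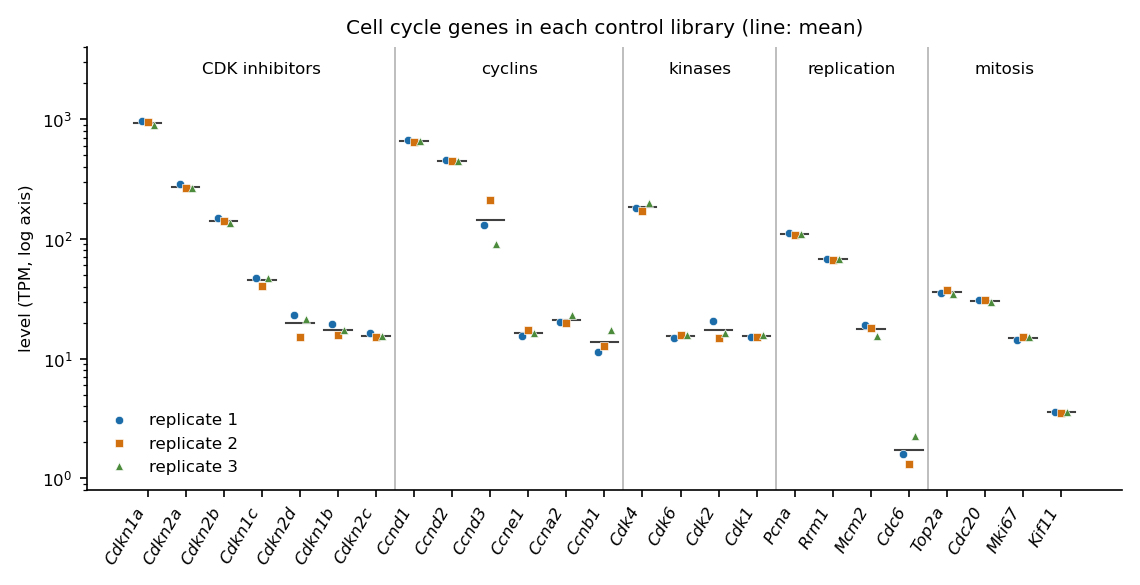
Level (TPM, log axis) of cell cycle genes in each of the 3 control libraries, grouped by role, with a line at the mean. Cdkn1a at 935 TPM and Ccnd1 at 658 TPM stand highest, and the mitotic genes shown lie between 3.55 and 35.8 TPM.

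Most genes of the p53 pathway were present. Trp53, the p53 gene, was at 75.9, 83.8 and 83.2 TPM, and Mdm2, which encodes the ligase that degrades p53 and is itself a p53 target, at 159, 135 and 138 TPM. Trp73, the p73 relative, was at 0.0285 TPM. All 25 listed p53 targets reached 1 TPM in all 3 libraries, and 24 had a mean of at least 10 TPM. Beside these, 12490 of 21906 protein-coding genes reached 1 TPM in all 3, and 9741 of all 54986 genes a mean of 10 TPM. Among the targets, Cdkn1a was followed by Ccng1, cyclin G1, at 435 ± 5.01 TPM. Phlda3, an inhibitor of Akt, was at 289 ± 9.21 TPM and Bax, a pore-forming death protein, at 235 ± 4.18 TPM. The median of the 25 targets was 49.7 TPM, beside 20.7 TPM for all genes at 1 TPM or more in all 3 libraries.

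The stretch upstream of the first Cdkn1a start is shown because p53 binds near that gene through pairs of a short degenerate half-site. Capitals mark matches to the p53 half-site consensus, at 73 and 51 bases before the start, in chr17:29090879-29090978 on the forward strand (RefSeq, GRCm38.p6).
Cdkn1a: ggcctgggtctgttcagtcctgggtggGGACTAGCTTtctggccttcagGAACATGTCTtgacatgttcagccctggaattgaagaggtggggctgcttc
A match to the half-site lay in the same stretch of 3 of 24 promoters of the listed targets (12.5%) and of 2.56% of all promoters. A second Cdkn1a start in the table had none. The consensus reads the same on both strands, and the 2 matches shown do not overlap. Only exact matches are in capitals, so the 2 are not shown to be a pair that p53 binds. The letters tgacatgttc, directly after the second match, miss the consensus only at their opening letter and are not marked. Binding was not tested.

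Genes tied to senescence, the lasting arrest that stressed fibroblasts enter, were unevenly present. Of 18 listed, 15 reached 1 TPM in all 3 libraries, beside 12490 of 21906 protein-coding genes. A mean of at least 100 TPM was reached by 5 of the 18. These were Igfbp3 at 923 ± 9.24 TPM, Timp1 at 530 ± 12.3 TPM, Ccl7 at 309 ± 10.5 TPM, Igfbp7 at 183 ± 4.82 TPM and Ccl2 at 144 ± 3.25 TPM. Glb1, the lysosomal beta-galactosidase, was at 41.7 ± 1.6 TPM and Lmnb1, the lamin lost in senescent cells, at 18.9 ± 0.841 TPM. Il6, the interleukin often secreted by senescent fibroblasts, was at 1.96, 2.14 and 2.76 TPM.

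Glycolysis was strongly represented. The 21 enzymes summed to 4399, 4702 and 4786 TPM, of which Pkm, pyruvate kinase, gave 1172 ± 21.8 TPM, Gapdh 777 ± 156 TPM, Aldoa, aldolase, 649 ± 30.7 TPM and Eno1, enolase, 445 ± 8.22 TPM. A single isoform dominated at several steps. Hk1 exceeded Hk2, both hexokinases, by a ratio of 22.1 ± 1.85, and Eno1 exceeded Eno3 by 15.2 ± 0.855. Ldha, the lactate dehydrogenase chain that favours lactate, was at 499, 536 and 511 TPM and Ldhb at 32.7, 43.2 and 26.3 TPM. Glucose carriers were low beside the enzymes: Slc2a3 was at 34, 36 and 29.8 TPM and Slc2a1 at 19.2, 19 and 17.6 TPM. Slc2a4, the insulin-regulated carrier of fat and muscle, was at 0.204 TPM. The 7 enzymes of the pentose phosphate pathway, which supplies NADPH and ribose, ran from 15.7 to 248 TPM, Pgd being the highest.

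Respiratory genes were nearly all detected. All 22 genes listed under the tricarboxylic acid cycle had a mean of at least 10 TPM. That list also holds enzymes outside the cycle, such as Acly and Pcx. Mdh2, mitochondrial malate dehydrogenase, was at 383 ± 9.57 TPM and Cs, citrate synthase, at 266 ± 3.44 TPM. Idh1, cytosolic isocitrate dehydrogenase, varied, at 351, 347 and 207 TPM, and its replicate 3 was the lowest. All 36 nuclear genes listed under complex I and all 15 of the ATP synthase were at 10 TPM or more. Of the ATP synthase genes, Atp5b was highest at 907 ± 16.4 TPM. Ndufa4, listed under complex I by its name although its protein is now assigned to complex IV, was at 873 ± 22.6 TPM. Next in that list was Ndufa7 at 240 ± 5.71 TPM. In complex IV the forms used in heart and muscle were low: Cox7a1 was at 1.96 TPM and Cox6a2 at 0.333, and Cox8b was listed at 0, while Cox6a1 was at 637 ± 44.1 TPM and Cox8a at 502 ± 22.9 TPM. Of the mitochondrial genes, mt-Co1 was at 16432 ± 159 TPM. mt-Atp6, which overlaps 2 neighbours, varied most of the 13, at 10007, 5812 and 7217 TPM.

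Lipid synthesis genes were detected across the pathway. All 21 genes of cholesterol synthesis and uptake had a mean of at least 10 TPM, with Fdps, farnesyl diphosphate synthase, at 215 ± 3.89 TPM and Hmgcs1 at 179 ± 5.75 TPM. Of the desaturases, Scd2 was at 537 ± 14.1 TPM and Scd1 at 235 ± 4.66 TPM, a ratio of 2.29 ± 0.0397. In fatty acid oxidation, Cpt1a, which admits fatty acids to mitochondria, was at 105 ± 3.44 TPM, its brain form Cpt1c at 75.4 ± 3.31 TPM and its muscle form Cpt1b at 3.74 ± 0.579 TPM. Ppargc1a, a coactivator of mitochondrial genes in oxidative tissue, was at 0.274, 0.178 and 0.233 TPM.

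Amino acid and redox genes were mostly present. Phgdh, the first enzyme of serine synthesis, was at 85.4 ± 4.9 TPM, and Glud1, glutamate dehydrogenase, at 247 ± 2.14 TPM. Gldc, of glycine cleavage, was at 0.778 TPM and Tdh, the threonine dehydrogenase of mouse embryonic stem cells, at 0.562 TPM. All 24 antioxidant genes had a mean of at least 10 TPM. Gpx4, which reduces lipid peroxides, was at 825 ± 14.2 TPM, Txn1, thioredoxin, at 711 ± 22.2 TPM and Sod1, superoxide dismutase, at 660.02 ± 20.2 TPM. Gpx1, another glutathione peroxidase, varied, at 649, 181 and 608 TPM, with replicate 2 far below the others.

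Among 302 listed transcription factors and DNA-binding regulators, 249 had a mean of at least 1 TPM. Ybx1, a cold-shock protein that also binds RNA, was highest at 599, 633 and 548 TPM and overlapped Sox2. Klf4 overlapped Id3, an inhibitor of helix-loop-helix factors, at 292, 277 and 269 TPM. Below them came Atf4, the factor of the integrated stress response, at 192 ± 1.82 TPM, and Wwtr1, the TAZ coactivator of the Hippo pathway, at 183 ± 3.95 TPM. OSKM factors thus held 2 of the first 3 places of this list. The list is not complete: Nupr1, a transcriptional regulator at 1517 ± 40.8 TPM, is not in it. Of the 20 highest, 3 stood apart from the next below in all libraries (Sox2, Id3 and Atf4); from Wwtr1 down, each overlapped its neighbour. Nfix, a nuclear factor I gene, had the widest spread of the 20 relative to its mean, at 156, 136 and 212 TPM. Plagl1, an imprinted zinc finger gene, was at 148 ± 10.8 TPM, Stat3 at 144 ± 9.92 TPM and Nr4a1, an immediate early nuclear receptor, at 131 ± 5.67 TPM.

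**Figure D4:**
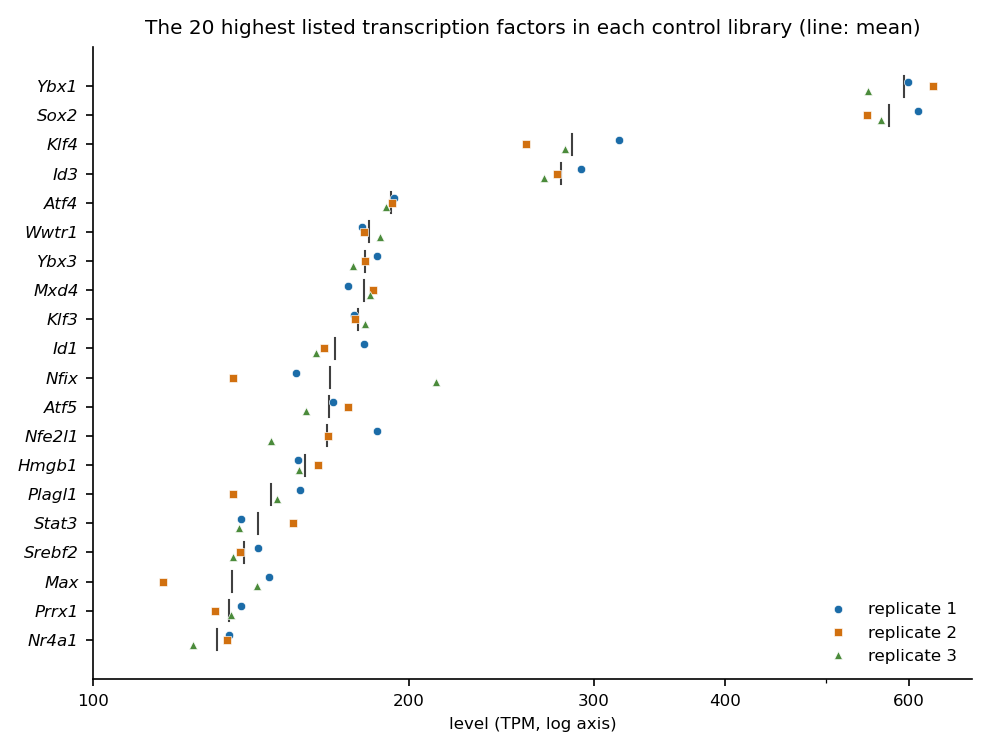
Level (TPM, log axis) of the 20 highest listed transcription factors in each of the 3 control libraries, with a line at the mean. Ybx1 and Sox2 overlap at the top, Klf4 and Id3 overlap between them and the rest, Atf4 stands just above the rest, and from Wwtr1 the ranges run into one another down to Nr4a1 at 131 TPM.

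Immediate early factors were moderate: Jun was at 97.3 ± 1.83 TPM, Egr1 at 39.3 ± 1.15 TPM and Fos at 10.8 ± 1.82 TPM. Yap1, the partner of the Hippo pathway beside Wwtr1, was at 116 ± 1.44 TPM. Factors known for driving other lineages were partly near 0: of 41 listed lineage drivers, 19 had a mean under 1 TPM. The T-box factor Tbx15 of limb and trunk mesenchyme was at 66.7 ± 0.636 TPM, the hindlimb factor Tbx4 at 17.2 ± 1.1 TPM and the forelimb factor Tbx5 at 10.7 ± 1.53 TPM.

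Hox genes, which record position along the body axis, were widely detected, with 33 of 39 at 1 TPM or more in all 3 libraries. The same level was reached by 12490 of 21906 protein-coding genes. Hoxd13, of the distal limb, was highest at 62, 60.3 and 60.3 TPM, just above Hoxc6 at 59.98, 57.4 and 55.2 TPM. Hoxa10 was at 42.1 ± 0.245 TPM, Hoxa9 at 38.6 ± 6.11 TPM and Hoxa13, also distal, at 11.4 ± 1.84 TPM. Hoxb1 and Hoxb13 were listed at 0, and Hoxd1 was at 0.0166 TPM. By cluster, 11 of 11 HoxA, 8 of 10 HoxB, 6 of 9 HoxC and 8 of 9 HoxD genes reached 1 TPM in all 3. Neighbours in a Hox cluster overlap non-coding and other Hox genes in many places, so reads near their borders may be split between them.

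Secreted proteins held well separated levels at the top of their list. Of 233 listed, 193 had a mean of at least 1 TPM, and 15 of the 20 highest stood apart from the next below in all 3 libraries. Beside the matrix genes already named, the 20 held Fstl1, a follistatin-related protein, at 1725 ± 14.1 TPM. Timp3 was at 1694 ± 32.9 TPM and Timp2 at 1414 ± 9.1 TPM, both inhibitors of matrix metalloproteases. Serpine2, an inhibitor of thrombin, was at 1187 ± 13.9 TPM. Mgp, the secreted matrix Gla protein, was at 1471 ± 61.6 TPM but is not in the list, so the order holds for listed genes only.

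**Figure D5:**
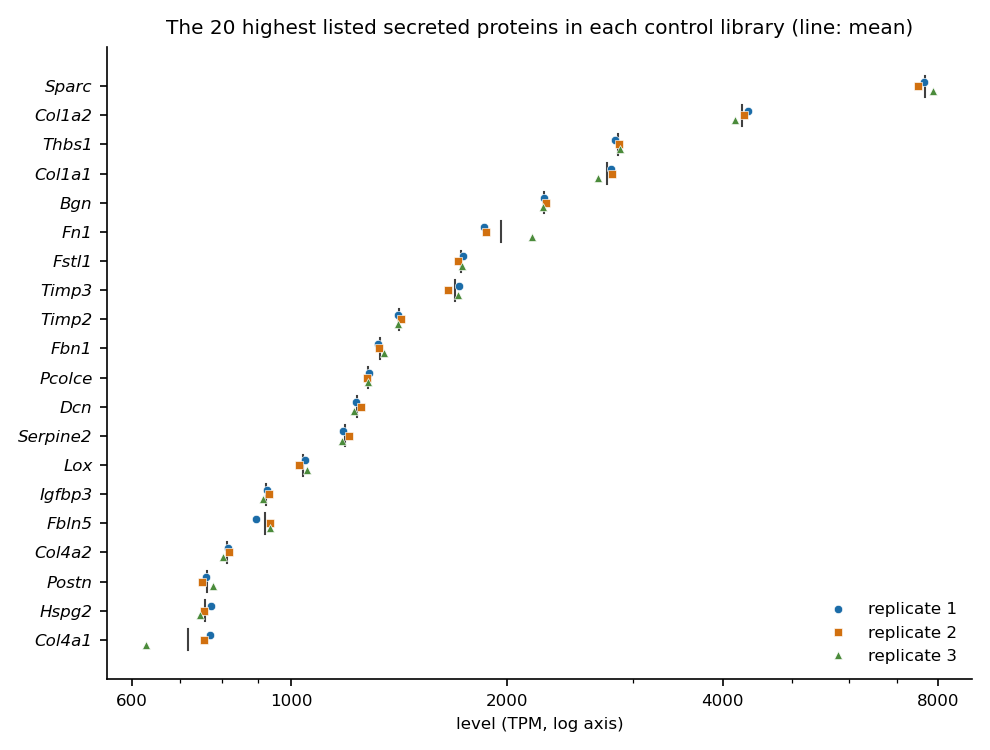
Level (TPM, log axis) of the 20 highest listed secreted proteins in each of the 3 control libraries, with a line at the mean. Sparc at 7667 TPM stands apart from Col1a2 at 4259.6 TPM, and the replicate 3 point sits apart from the other two for Fn1 and Col4a1.

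In the insulin-like growth factor axis the binding proteins were higher in sum than the ligands. Igfbp3 was at 923 ± 9.24 TPM, Igfbp6 at 438 ± 16.7 TPM and Igfbp7 at 183 ± 4.82 TPM. The 7 Igfbp genes summed to 1765, 1732 and 1698 TPM. Igf2, the fetal growth factor, varied widely at 66.9, 184 and 208 TPM, with replicate 1 the lowest, so that the ratio of Igfbp3 to Igf2 was 13.8, 5.05 and 4.39. Igf1 was at 51.8 ± 3.0 TPM. Of the receptors, Igf2r, which clears Igf2, was at 163 ± 1.16 TPM and Igf1r at 52.5 ± 0.222 TPM.

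Ligands of the TGF-beta family were modest and their extracellular regulators higher. Tgfb3 was at 55.7 ± 1.49 TPM, Tgfb1 at 39.4 ± 1.61 TPM, Tgfb2 at 32.3 ± 1.13 TPM and Bmp4 at 17.9 ± 1.05 TPM. The latent binding proteins Ltbp4 and Ltbp1 were at 214 ± 11.5 TPM and 178 ± 4.91 TPM, and Fst, follistatin, which binds activins, at 177 ± 19.3 TPM. In the Wnt pathway, the antagonists Dkk2 and Sfrp2 were at 212 ± 0.915 TPM and 159 ± 4.23 TPM, and the highest Wnt ligand, Wnt5a, at 55.8 ± 3.43 TPM. These 3 followed that order without overlap between libraries.

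Inflammatory genes were led by chemokines. Ccl7 was at 297, 318 and 311 TPM, Cxcl14 at 232 ± 0.678 TPM and Ccl2 at 144 ± 3.25 TPM; Ccl7 and Ccl2 attract monocytes. Ccl2 exceeded Il6 by a ratio of 64.2 ± 9.58. Ptgs2, the inducible cyclooxygenase, was at 42.2 ± 1.27 TPM. Of 27 genes in this role, 10 had a mean under 1 TPM. Growth factors included Spp1, osteopontin, at 345 ± 9.32 TPM, Ptn, pleiotrophin, at 154 ± 7.86 TPM and Pdgfa at 78.9 ± 5.41 TPM. Fgf2 varied, at 19.3, 5.16 and 22.7 TPM.

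Among proteases, Mmp14, a membrane-bound collagenase, was at 421 ± 6.86 TPM and Mmp2, the gelatinase that it activates, at 197 ± 8.22 TPM. Timp3 exceeded Mmp2 by a ratio of 8.6 ± 0.309. The lysosomal proteases Ctsd and Ctsl, which can also be secreted, were at 1418 ± 27.9 TPM and 1033 ± 74.3 TPM, above any metalloprotease listed. Plau, urokinase, was at 6.88 ± 0.374 TPM and Plat, tissue plasminogen activator, at 24.5 ± 1.55 TPM.

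Markers of other cell types were mixed. Of 91 listed, 60 had a mean under 1 TPM, 29 reached 1 TPM in all 3 libraries and 15 had a mean of at least 10 TPM, some of which fibroblasts also make (Sparc, Lamb1). Of 14 macrophage genes, Ptprc, the CD45 antigen, was at 0.0344, 0.0763 and 0.0843 TPM, Csf1r at 0.382 TPM and Cd68, a lysosomal protein, at 12 ± 0.967 TPM; the 14 summed to 21.6 ± 1.63 TPM. Of 10 endothelial genes, Cdh5, VE-cadherin, was at 0.0165 TPM and Pecam1 at 0.419, while Tek, the angiopoietin receptor, was at 29.5, 31.8 and 31.4 TPM, Flt1, a receptor for VEGF, at 9.39 ± 0.743 TPM and Erg, an ETS factor, at 6.44 ± 1.19 TPM; the 10 summed to 48.5, 49.5 and 46.9 TPM.

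Several genes of other tissues were present while others of the same tissue were low. Col2a1 of cartilage was at 179 TPM, but Acan, aggrecan, was at 0.0807, 0.12 and 0.0951 TPM and Sox9, the chondrocyte factor, at 4.85 ± 0.499 TPM. Bglap, osteocalcin, was at 28.4 ± 0.652 TPM and Col10a1, of hypertrophic cartilage, at 22.8 ± 1.45 TPM. Gap43, of growing axons, was at 196 ± 6.97 TPM and Tubb3, neuronal tubulin, at 129 ± 2.69 TPM, with Map2 and Nes at 33.4 and 30.9 TPM, while Dcx, doublecortin, was at 0.658, 0.753 and 0.489 TPM. Hbb-y, embryonic beta-globin, was at 33.7, 32.2 and 30.3 TPM, but the alpha-globin Hba-a1 was at 0, 0.344 and 0.236 TPM. Alb, albumin, was at 29, 29.4 and 27.6 TPM and Apoa1, an apolipoprotein, at 13 ± 0.623 TPM, and Afp, alpha-fetoprotein, at 0.142, 0 and 0 TPM. In muscle, Tnnt2, cardiac troponin T, was at 21.6 ± 1.15 TPM, and Myod1 was listed at 0. Where such a transcript comes from was not tested.

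Sex-linked genes were alike in the 3 libraries. The Y-linked Eif2s3y was at 80.04, 75.7 and 79.6 TPM and Ddx3y at 55.4, 52.1 and 48.4 TPM. Xist, the RNA that silences an X chromosome in female cells, was at 1.63, 1.9 and 2.05 TPM. All 4 listed Y-linked genes were above 10 TPM on average, so male cells contributed to each library. Imprinted genes of both parental kinds were detected. Meg3, expressed from the maternal copy, was at 144 ± 6.5 TPM, H19, also maternal, at 101 ± 2.04 TPM, Mest, paternal, at 87.2 ± 5.32 TPM and Sgce, paternal, at 78.7 ± 3.57 TPM.

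Genes tied to DNA methylation matter here because Tet2 is named in the title of the study. Tet2, which oxidises 5-methylcytosine, was at 27.2, 31.6 and 26 TPM and Tet3 at 23.5 ± 0.79 TPM, and Tet1 was lower in each library. Dnmt3a, a de novo methyltransferase, varied at 52.8, 73.3 and 39.2 TPM, Dnmt1, which maintains methylation, was at 26.3 ± 0.888 TPM, Dnmt3b at 2.04, 1.42 and 2.1 TPM and the germ cell cofactor Dnmt3l was listed at 0. The Zscan4 genes of the 2-cell embryo were near 0 without overexpression: the 6 genes summed to 0.33, 0 and 1.44 TPM. Of 13 other genes of that stage that were found, Ddit4l was at 28.7, 25.6 and 30.4 TPM, and the other 12 had means under 1 TPM. None of 17 germline genes reached 1 TPM in all 3 libraries. Tert, the telomerase reverse transcriptase, was at 4.77, 5.75 and 5.88 TPM, and Terc, its RNA template, at 0.242 ± 0.0726 TPM. Terc RNA lacks a poly(A) tail, and whether this bears on its level was not tested.

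The genes that differed most between the 3 libraries included short non-coding genes and genes that overlap others. Of genes with a mean of at least 5 TPM, 103 of 11536 had a CV above 50%, and 92.8% had a CV of at most 20%. Among genes with a mean of at least 20 TPM the largest CV belonged to Mir214, at 0.283, 0.00032 and 82.1 TPM, and RP24-243J4.5, at 734, 4.13 and 0 TPM. RP23-118A2.10 was at 102, 0 and 1.75 TPM, and Ube2v1, whose span on chromosome 2 it overlaps, at 43.3, 196 and 145 TPM: the library with the highest value of one had the lowest of the other. The protocadherin genes Pcdhgb4 and Pcdhga9, which share their last exons, were at 7.64, 109 and 7.16 TPM and 1.69, 9.86 and 68 TPM. Mob1a, a Hippo pathway scaffold, was at 25, 115 and 30.3 TPM, with replicate 2 the highest, and Cdk5rap2, a centrosome protein, at 10.3, 11.1 and 43.1 TPM, with replicate 3 the highest. For such genes the mean describes no library, and the cause of the spread was not tested. Nor was it tested for Serpinh1, Idh1, Gpx1, Igf2, Fgf2, Ccnd3 or Dnmt3a, named above with wide spreads.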

How the data were processed

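RNA-seq libraries of total RNA were prepared with the Illumina TruSeq RNA kit, per the labels' protocols. Per the submitters' processing notes, the authors used HISAT2 2.1.0 and StringTie. The sources used here do not give the StringTie version, genome build, annotation release or strand setting. The deposited TPM values are per length of transcript and sum to the same total in each library. The deposited FPKM values are per length and per fragments of the library, and the deposited coverage is the mean read depth over a gene. FPKM served to recount detected genes. Coverage divided by FPKM scales with depth, and its commonest value gave an estimate of 7.79, 8.26 and 6.6 gigabases of aligned sequence in replicates 1, 2 and 3. The files hold no counts, so no counting interval is given: precision is the SD of 3 libraries.

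Groups and replicate numbers come from titles; the 6 overexpression libraries are not analysed here. Rows of 1 gene ID were summed (13 IDs with more than 1 entry). Of 54986 IDs, 54079 were found in the GRCm38 annotation, and 97.7% of these had identical coordinates, so coordinates are given on GRCm38. Of 1291 listed symbols, 1284 were found, and 14 had more than 1 gene ID, of which 1 was used. Of 1019 listed genes with a mean of at least 1 TPM, 259 overlap another gene at 1 TPM or more, and their reads cannot be fully parted without strand. Between pairs of libraries, Pearson's r of log2(TPM + 1) was 0.991 to 0.992 across genes at 1 TPM or more in all 3, where genes are not independent replicates, and no 2 libraries held the same values.

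No test was run and no groups were compared. Means, SD, CV, ratios and sums were computed with Python 3.11.15, pandas 2.3.3 and numpy 2.4.6, figures were drawn with matplotlib 3.10.9, and the computation was tested on simulated data. Genes are called apart where their 3 values do not overlap. Named genes are up to 8 members of highest mean in each of 83 roles, members whose low level is stated, the 30 highest genes, the 20 highest listed transcription factors and secreted proteins, and the 10 genes of largest CV with a mean of at least 20 TPM. Other genes outside this rule (such as Ube2v1, Fgf2, Tbx5, Fos, Tnc, Gpc3, Mcm2, Plau and Lmnb1) were added after their values were seen. The members and lists were chosen with earlier results of these data known. Promoters were matched by symbol to RefSeq sequences of 300 bases (GRCm38.p6).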

Additional observations from a re-analysis of the deposited data

How the results depend on the processing

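No test was run, so settings bear on levels and counts only, and no paired analysis was possible because no groups were compared. Leaving out 1 library at a time gave 14681 to 14707 genes at 1 TPM or more in the remaining libraries, a share of the 100 highest genes of 28.7% to 28.8%, and a median CV of 4.50% to 4.63%, where an SD of 2 libraries replaces one of 3. The summed levels then ran from 9009 to 9166 TPM for fibrillar collagens, 898 to 960.0 for the OSKM genes, 36.6 to 38.3 for simple epithelial keratins, 4550.3 to 4744 for glycolysis enzymes and 1715 to 1748 for Igfbp genes. Rescaling TPM over genes other than the mitochondrially encoded ones raises every other gene by construction. It gave a share of 23.0%, a median CV of 5.82%, and sums of 10039 (collagens), 1031 (OSKM), 41.3 (keratins), 5121 (glycolysis) and 1916 (Igfbp) TPM. Taking out the RP23-8J15 loci too, a setting chosen after seeing the data, gave 19.99% and sums of 10540.1, 1082.5, 43.4, 5377 and 2011 TPM in the same order. The median CV was 23.5% with no filter on low values and 4.60% at a mean of at least 20 TPM. The 14440 genes became 15868 from 0.5 TPM, 11132 from 5 TPM, 12575 from 1 FPKM and 15285 by a mean of 1 TPM. Scaling by median of ratios, taking the highest entry of a gene ID and taking the median library moved none of the values they were applied to by more than 1 SD. Without counts, levels near 0 cannot be given a counting error.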

Other observations

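Protein folding genes were abundant and belonged to no role described above. Of 14 listed chaperones, 12 had a mean of at least 100 TPM. Hsp90ab1, the constitutive cytosolic HSP90, was at 1758 ± 30.2 TPM and Calr, calreticulin of the endoplasmic reticulum, at 1271 ± 15.2 TPM. Hspa8, the constitutive cytosolic HSP70, was at 995 ± 173 TPM, while Hspa1b, its heat-induced relative, was at 11.2, 10.8 and 10.05 TPM. Hspa5, the main HSP70 of the endoplasmic reticulum, was at 319.8 ± 2.44 TPM and Ddit3, the CHOP factor induced by stress there, at 105 ± 4.67 TPM.

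Among long non-coding RNAs, the nuclear RNA Malat1 was highest at 775, 808 and 816 TPM. Gas5, a host gene of small nucleolar RNAs, was at 296 ± 9.66 TPM and Neat1, the scaffold of paraspeckles, at 80.3 ± 3.29 TPM. Kcnq1ot1, an imprinted RNA, was at 0.827 TPM. Of telomere genes, the shelterin members Terf2ip, Terf2 and Terf1 were at 34.6 ± 1.93 TPM, 31.6 ± 1.69 TPM and 15.4 ± 2.38 TPM.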
